A study of Mus musculus with 6 samples.

Results

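The genes described are 10 products through which regulatory T cells (Treg) restrain other immune cells or help tissue repair: Il10, Ebi3, Il12a, Tgfb1, Fgl2, Areg, Lgals1, Entpd1, Nt5e and Lag3. They were picked by symbol out of 38854 genes on the array, and each symbol had 1 row, so 10 of 10 were measured. RNA came from Treg of Foxp3-GFP mice, a reporter genotype in which green fluorescence follows Foxp3, the transcription factor that Treg depend on. There were 3 arrays of liver Treg (numbered 2, 3 and 7 in the labels) and 3 of spleen Treg (4, 5 and 6). In both groups the mice had been injected with interleukin-2 bound to anti-interleukin-2 antibody (IL-2/IL-2Ab complex), which makes Treg multiply, on 3 days followed by a pause of 3 days, and no group without this treatment was analysed here. Age, sex and strain background are not in the labels. The labels name both a fluorescence sorter and magnetic isolation for the cells. They do not say whether arrays came from separate mice, so the p-values rest on a spread between arrays that could be technical alone.

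Treg suppress through secreted cytokines, through enzymes and lectins on or near the cell surface, and through receptors that act on antigen-presenting cells. IL-10 damps macrophages and dendritic cells, TGF-beta is secreted in a latent form that has to be activated, and IL-35 is a pair of the chains encoded by Ebi3 and Il12a. CD39 (Entpd1) and CD73 (Nt5e) work in sequence, the first taking extracellular ATP to AMP and the second AMP to adenosine, which inhibits T cells. Fgl2 is a secreted fibrinogen-like protein that acts on antigen-presenting cells through inhibitory Fc receptors, galectin-1 (Lgals1) binds glycans on T cells, and Lag3 binds MHC class II. Amphiregulin (Areg) is a ligand of the EGF receptor through which tissue Treg promote repair. Liver Treg work in an organ that is exposed to gut products and is tolerant by default, whereas spleen Treg work in a lymphoid organ.

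Values are log2 signals, and 1 unit is a doubling. Signals of different genes depend on their probes, so each gene was compared only with itself between tissues. Foxp3 measured 9.31 to 9.57 in liver and 9.40 to 9.57 in spleen, and in none of the 6 Treg and CD4 T cell markers (Foxp3, Il2ra, Ctla4, Ikzf2, Cd3e and Cd4) did the tissues separate. Array medians ran from 5.68 to 5.90, with spleen array 5 the highest. The 6 arrays also fell into 2 sets that cut across the tissues. Ctse, which encodes a protease, was at 8.67 to 8.76 on liver arrays 2 and 3 and spleen array 6 and at 11.1 to 11.3 on liver array 7 and spleen arrays 4 and 5, and Habp2 went the other way, at 8.19 to 8.44 against 5.51 to 5.73. NK cell markers (Ncr1, Klrb1c, Klrd1, Klrc1, Tyrobp and Eomes) were brighter in the liver samples, with a summed linear signal of 759.5 to 1446 against 437.4 to 556.1 in spleen, 4 of 6 higher on every liver array, and Ncr1 below the mean of the negative control rows on all 6 arrays. Plasmacytoid dendritic cell markers summed to 437.4 to 638.4 in liver and 343.3 to 402.2 in spleen (2 of 3 higher on every liver array, Siglech by 1.004 and Bst2 by 0.60 on the log2 scale). CD8 T cell markers summed to 681.5 to 709.2 against 401.9 to 630.1 (1 of 2, Cd8a by 0.97), and B cell markers to 609.1 to 735.8 against 536.7 to 624.2 (2 of 4, Cd79a and Ms4a1). The part of such cells in the differences that follow was not tested. Fewer cells of a type and less RNA per cell cannot be told apart in such samples.

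None of the 10 mediators passed the test between liver and spleen (limma, Benjamini-Hochberg adjusted p under 0.05 over all genes), where 0.0206% of all genes did. At an unadjusted p under 0.05 there were 4 of the 10 (Areg, Fgl2, Il10 and Ebi3), and 3.77% of all genes. All 3 liver arrays lay on one side of all 3 spleen arrays in 6 of the 10, which was the case for 6.19% of all genes and 7.48% of the brighter 50% of genes by mean signal, which hold 9 of the 10. Fgl2, Ebi3 and Entpd1 were the mediators brighter on every liver array (3.11% of all genes), and Areg, Il10 and Nt5e were those brighter on every spleen array (3.09% of all genes). In Tgfb1, Lgals1, Lag3 and Il12a the tissues overlapped. The 10 were chosen with earlier results of these data known, so such counts do not test them as a group. The median difference of the 10 was 0.01, against -0.02 over all genes, and their median absolute difference was 0.20, against 0.07. With 3 arrays against 3 an exact two-sided permutation test cannot give a p under 0.1 for a single gene.

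**Figure D1:**
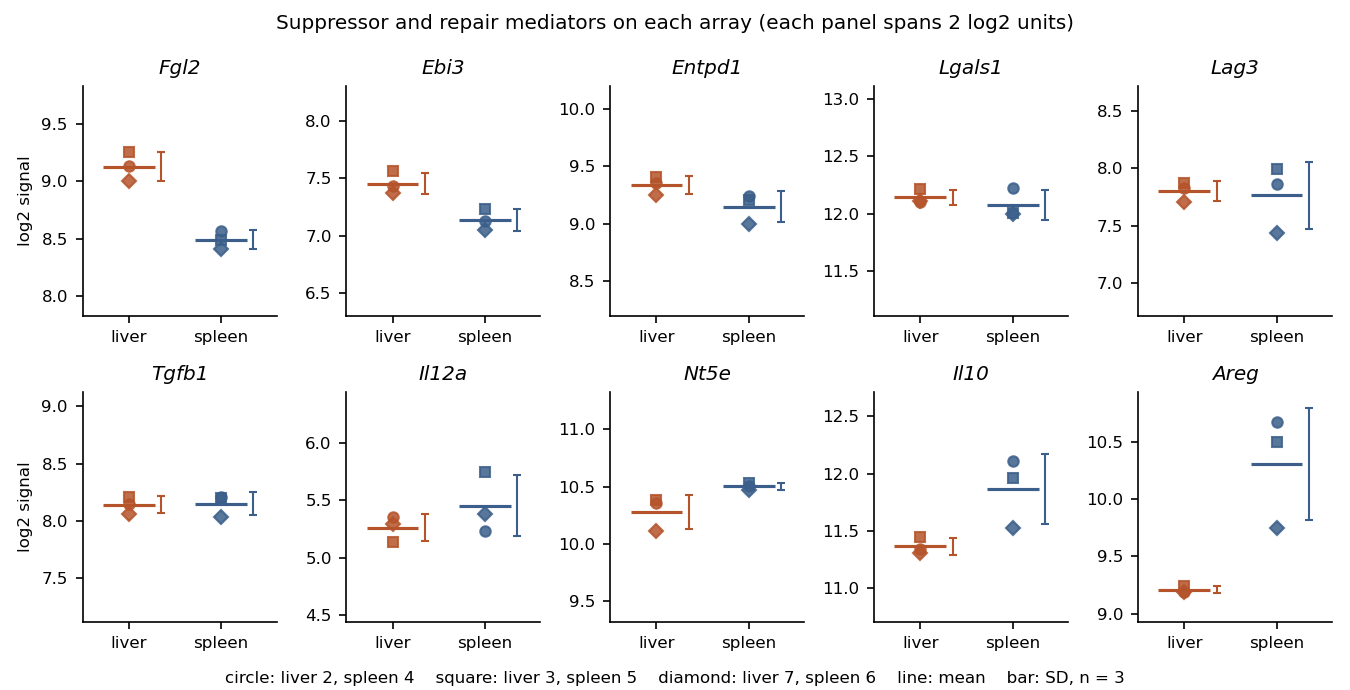
Log2 signal of the 10 mediators on each of the 6 arrays, ordered by the liver minus spleen difference, with 1 panel per gene, all panels to the same span. Points are arrays, lines are means and bars are SD (n = 3); the liver points of Areg lie between 9.19 and 9.25, below spleen points that spread from 9.75 to 10.7.

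Amphiregulin showed the largest difference of the 10. Areg measured 9.19, 9.25 and 9.19 on liver arrays 2, 3 and 7 and 10.7, 10.5 and 9.75 on spleen arrays 4, 5 and 6. The liver arrays lay within 0.06 of each other, the spleen arrays spread over 0.92, and the lowest spleen array was 0.50 above the highest liver array. The means were 9.21 ± 0.03 in liver and 10.3 ± 0.49 in spleen (SD, n = 3), so that spleen was 2.14-fold brighter (log2 difference -1.10, SE 0.19, 95% confidence interval -1.51 to -0.68, limma adjusted p = 0.136). Against the liver mean, spleen array 4 was 2.76-fold, spleen array 5 2.44-fold and spleen array 6 1.45-fold brighter. When spleen array 6 was left out, the difference was -1.37 and passed (limma adjusted p = 0.00683), and when spleen array 4 was left out it was -0.91. It did not pass when any array other than spleen array 6 was left out (limma adjusted p = 0.0696 to 0.568). Areg is also known from basophils and mast cells. All 4 of their markers (Fcer1a, Mcpt8, Cpa3 and Ms4a2) were below the mean of the negative control rows on all 6 arrays. Their summed linear signal was 65.5 to 71.7 in liver and 66.6 to 78.4 in spleen. The part of other cells in the Areg difference was not tested.

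Fgl2 was the mediator with the largest difference towards liver. It measured 9.13, 9.25 and 9.001 on liver arrays 2, 3 and 7 and 8.57, 8.49 and 8.41 on spleen arrays 4, 5 and 6. Both tissues were tight, with ranges of 0.25 and 0.16, and the gap between them was 0.43. Liver was 1.56-fold brighter (log2 difference 0.64, SE 0.11, 95% confidence interval 0.39 to 0.89, limma adjusted p = 0.141). Of all genes, 99.6% had a smaller absolute difference than Fgl2. With a spread that was allowed to depend on signal and robust to outlying genes, Fgl2 passed at the same difference (limma adjusted p = 0.0371). Macrophages also make Fgl2. The 9 macrophage and monocyte markers summed to 868.4 to 1182 in liver and 769.0 to 1003 in spleen (linear signal), with Lyz2 the 1 of 9 higher on every liver array (8.16, 8.10 and 7.31 against 6.27 to 6.74) and Emr1, Fcgr1 and Vsig4 below the mean of the negative control rows on all 6 arrays. Fgl2 and Lyz2 were both lowest in liver on array 7, as were the NK sum (759.5 against 1402 and 1446) and Foxp3 (9.31). In spleen, where Fgl2 spanned only 0.16, it was highest on array 4, where Lyz2 (6.27) and the NK sum (437.4) were lowest. With 3 arrays per tissue, such orders decide nothing about other cells. The part of other cells in the Fgl2 difference was not tested.

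The sequences just before the annotated starts of these 2 genes are shown because Areg and Fgl2 differed most, in opposite directions. They are RefSeq sequences (GRCm38.p6). Windows of 7 of the 10 mediators were used here (Areg, Fgl2, Ebi3, Il12a, Tgfb1, Entpd1 and Nt5e), 9 windows in all, and those of Il10, Lgals1 and Lag3 were not analysed here. Each runs 5′ to 3′ over the 250 bases before the start on the + strand, at chr5:91139349-91139598 for Areg and chr5:21372423-21372672 for Fgl2. Capitals mark matches to 4 motifs searched on both strands: TGANTCA (AP-1), TGACGTCA (cAMP response element), GGG and TTTCC with any 2 bases between them (NF-kB) and TTCNNNGAA (STAT).
Areg: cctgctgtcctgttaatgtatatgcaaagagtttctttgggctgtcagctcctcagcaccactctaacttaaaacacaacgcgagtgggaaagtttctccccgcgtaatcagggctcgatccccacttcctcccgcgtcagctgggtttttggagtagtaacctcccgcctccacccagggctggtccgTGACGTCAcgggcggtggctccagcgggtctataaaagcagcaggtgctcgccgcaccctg
Fgl2: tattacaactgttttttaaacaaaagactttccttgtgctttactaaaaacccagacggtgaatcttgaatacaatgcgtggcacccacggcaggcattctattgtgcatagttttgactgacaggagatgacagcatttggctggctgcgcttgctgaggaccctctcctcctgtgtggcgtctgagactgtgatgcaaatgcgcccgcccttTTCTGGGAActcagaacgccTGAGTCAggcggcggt
The Areg window held a cAMP response element match from base 61 to base 54 before the start, which 1.55% of 32851 windows of the same length hold. The Fgl2 window held a STAT match from base 36 to 28 and an AP-1 match from base 16 to 10 before the start, motifs found in 7.02% and 6.75% of windows. The other 7 windows held none of the 4 motifs. A match of letters is a description of the window and not evidence of binding.

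Il10 was the second mediator by its difference towards spleen. It measured 11.3, 11.4 and 11.3 on liver arrays 2, 3 and 7 and 12.1, 12.0 and 11.5 on spleen arrays 4, 5 and 6. Its signal was far above background, with 0.594% of the 5222 negative control rows brighter than its mean. Spleen was 1.41-fold brighter (log2 difference -0.50, SE 0.15, 95% confidence interval -0.82 to -0.18, limma adjusted p = 0.581). The gap between the tissues was only 0.08, between liver array 3 and spleen array 6. Against the liver mean, spleen array 4 was 1.68-fold, spleen array 5 1.51-fold and spleen array 6 1.12-fold brighter, the same order as for Areg. Leaving out spleen array 6 moved the difference to -0.67, and leaving out spleen array 4 to -0.38.

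Of the 2 chains of IL-35 only Ebi3 was above the mean of the negative control rows, and 22.2% of those rows were brighter than the Ebi3 mean. Ebi3, which is also a chain of IL-27, measured 7.43, 7.56 and 7.37 in liver and 7.13, 7.23 and 7.05 in spleen (arrays in the same order). The tissues were separated by 0.14, and liver was 1.25-fold brighter (log2 difference 0.32, SE 0.11, 95% confidence interval 0.07 to 0.56, limma adjusted p = 0.859). Il12a, the alpha chain shared with IL-12, measured 5.36, 5.13 and 5.29 in liver and 5.23, 5.75 and 5.38 in spleen. These values lay below the mean of the negative control rows on every array (5.73 to 5.91), and 60.0% of those rows were brighter than its mean, so Il12a was not above background on these arrays in either tissue. Its difference of -0.19 (95% confidence interval -0.50 to 0.12, limma adjusted p = 1) is therefore no measure of the transcript. Dendritic cells also make Ebi3. The 6 conventional dendritic cell markers summed to 342.5 to 473.0 in liver and 261.9 to 311.2 in spleen, with 5 of 6 higher on every liver array (Clec9a 6.30, 6.37 and 5.51 in liver against 5.04 to 5.20 in spleen) and Xcr1 and Zbtb46 below the mean of the negative control rows on all 6 arrays. Clec9a was below the same mean on 4 of the 6 arrays, and Flt3 and Cd209a on 2 each. The part of dendritic cells in the Ebi3 difference was not tested.

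The enzymes that make adenosine had differences of opposite sign, neither with an interval that excludes 0. Entpd1 (CD39) measured 9.36, 9.41 and 9.25 in liver and 9.24, 9.21 and 8.996 in spleen. The tissues did not overlap, but liver array 7 and spleen array 4 were only 0.006 apart, and the tissues overlapped once array medians were subtracted. The log2 difference was 0.19 (SE 0.12, 95% confidence interval -0.06 to 0.44, limma adjusted p = 1). Nt5e (CD73) measured 10.4, 10.4 and 10.1 in liver and 10.5, 10.5 and 10.5 in spleen, a tight group with a range of 0.06. Its log2 difference was -0.22 (SE 0.11, 95% confidence interval -0.47 to 0.03, limma adjusted p = 1). Leaving out spleen array 6 moved Entpd1 to 0.113, and leaving out liver array 7 moved Nt5e to -0.134. Taken as a ratio within each array, Entpd1 over Nt5e was 0.41 higher in liver on the log2 scale, with no overlap of the tissues (exact two-sided permutation p = 0.1, the smallest these 6 arrays can give). A ratio within an array shows an unequal difference and not which enzyme differed.

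Tgfb1, Lgals1 and Lag3 showed no difference beyond the spread of the arrays. Tgfb1 measured 8.15, 8.21 and 8.06 in liver and 8.21, 8.20 and 8.03 in spleen, which made a difference of -0.01 (95% confidence interval -0.25 to 0.23). Lgals1 measured 12.1, 12.2 and 12.1 in liver and 12.2, 12.0 and 12.0 in spleen, and its difference was 0.06 (-0.18 to 0.31). Its signal was far above background, with 0.383% of the negative control rows above its mean. Lag3 measured 7.83, 7.87 and 7.70 in liver and 7.86, 7.997 and 7.44 in spleen, a difference of 0.03 (-0.28 to 0.35). Spleen array 6 was the lowest of all arrays in Lag3, and without it the difference was -0.13. The intervals of these 3 genes reach no further than 0.35 from 0 in either direction.

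**Figure D2:**
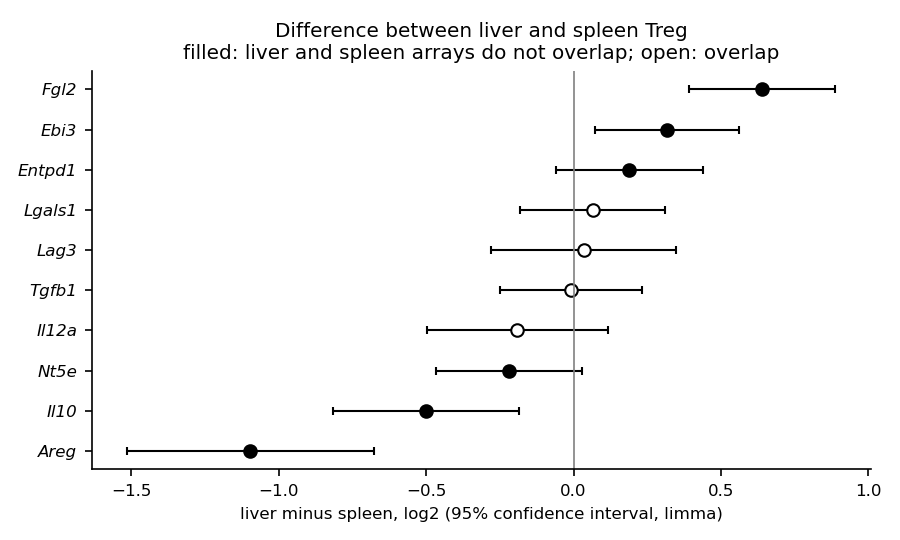
Liver minus spleen difference of each mediator on the log2 scale, with its 95% confidence interval from limma (n = 3 arrays per tissue). The intervals of Fgl2, Ebi3, Il10 and Areg exclude 0, and those of the other mediators include it; filled points are the 6 mediators whose tissues do not overlap.

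Ranked from liver to spleen, the order was Fgl2, Ebi3, Entpd1, Lgals1, Lag3, Tgfb1, Il12a, Nt5e, Il10 and Areg, in which the place of Il12a, at background, carries no information. Neighbours were compared by their ratio within each array, and since the same differences made the order, the direction of each ratio was fixed by it. In 3 of 9 neighbouring pairs the ratio did not overlap between tissues: Fgl2 over Ebi3 (0.32 higher in liver on the log2 scale), Ebi3 over Entpd1 (0.13) and Il10 over Areg (0.60). Each of these had an exact two-sided permutation p of 0.1, or 0.3 after adjustment over the 9 pairs. In the other 6 pairs the ratios overlapped, so the order within each of those pairs is not settled beyond the spread. From Entpd1 to Il10, the only pair compared that was not of neighbours was Entpd1 over Nt5e. Its ratio did not overlap between tissues (0.41 higher in liver on the log2 scale). The ends of the order were far apart: Fgl2 over Areg was 1.74 higher in liver than in spleen on the log2 scale.

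Within the 2 array sets, the sizes of several differences were unequal. Among liver arrays 2 and 3 and spleen array 6, where Ctse was low, liver minus spleen was -0.53 for Areg, -0.13 for Il10, 0.79 for Fgl2 and 0.45 for Ebi3. Among liver array 7 and spleen arrays 4 and 5, where Ctse was high, it was -1.39 for Areg, -0.73 for Il10, 0.47 for Fgl2 and 0.19 for Ebi3. Both sets gave the same sign for 7 of the 10 mediators, the exceptions being Tgfb1 (0.15 and -0.14), Lgals1 (0.16 and -0.01) and Lag3 (0.41 and -0.23). Entpd1 differed by 0.39 in the first set and 0.02 in the second. With the set as a term in the fit, a choice made after the data were seen, Areg passed at -0.96 (limma adjusted p = 0.0336) and Il10 stood at -0.43 (limma adjusted p = 0.811). As each set holds only 1 array of one tissue, whether the differences depend on the set was not tested.

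**Figure D3:**
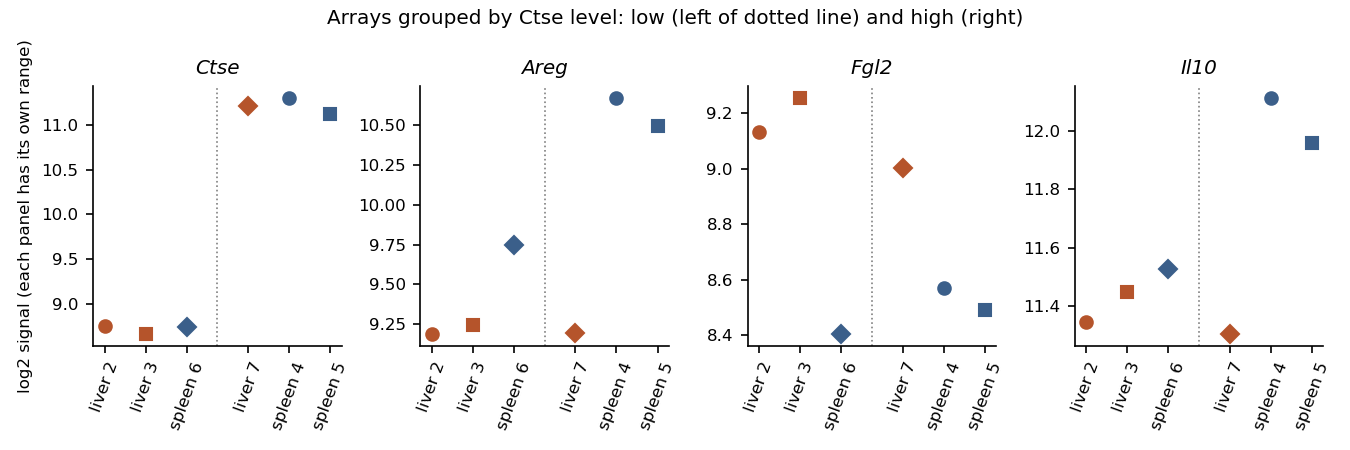
Log2 signal of Ctse, Areg, Fgl2 and Il10 on each array, with the 3 arrays of low Ctse left of the dotted line and the 3 of high Ctse right of it (liver in brown, spleen in blue; each panel has its own range). Spleen array 6, at 9.75 in Areg and 11.5 in Il10, lies between the liver arrays and the other 2 spleen arrays.

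Around these products, 78 genes of their pathways were measured in 8 lists, and 1 rose in liver, none fell and 77 did not pass. Of all genes, 0.0206% passed. The tissues did not overlap in 15 of the 78, against 6.19% of all genes. An unadjusted limma p under 0.05 was found in 10 of the 78, against 3.77% of all genes. Over these 78 the median difference was -0.002, against -0.02 over all genes. The gene that rose was Il12rb2, a signalling chain of the IL-12 receptor that also serves IL-35, at 2.35-fold (log2 difference 1.23, SE 0.17, limma adjusted p = 0.0473). It measured 7.87, 7.95 and 7.55 in liver and 6.69, 6.81 and 6.19 in spleen. The NK and CD8 T cell markers Klrc1, Klrd1 and Cd8a were also higher on every liver array, by 1.56, 1.88 and 0.97. So were Klrb1c and Tyrobp, while Ncr1, Eomes and Cd8b1 overlapped between tissues. Klrc1, Klrd1, Klrb1c and Eomes, like Il12rb2, were lowest in liver on array 7 and lowest in spleen on array 6. On spleen array 6 these markers read 5.29, 5.04, 5.68 and 5.68, below the mean of the negative control rows there (5.81). Klrc1 was below that mean on 3 of the 6 arrays and Eomes on 4, so the order of such values in spleen carries little information. Ncr1 and Tyrobp were lowest in spleen on array 4, and Cd8a was lowest in liver on array 2. The part of NK or CD8 T cells in the Il12rb2 difference was not tested. No pathway gene, Il12rb2 included, passed after the 3 rescalings of the arrays or when liver array 3 or spleen array 5 was left out. The other IL-35 receptor chain, Il6st, lay on the other side, at 9.97, 9.93 and 9.73 in liver and 10.2, 10.1 and 9.98 in spleen (log2 difference -0.25, limma adjusted p = 1). The tissues were separated in both chains, though in Il6st by a narrow gap. The signal transducer Stat4, in the same list of 8 genes, was at 0.12 and did not pass.

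Among 8 factors that regulate Il10 in T cells none passed, and the list's median difference was -0.06. Bhlhe40, which represses Il10 in T helper cells, measured 8.63, 8.69 and 8.78 in liver and 9.63, 9.60 and 8.96 in spleen. As in Il10 and Areg, spleen array 6 lay closest to liver, and the difference was -0.69 (SE 0.16, limma adjusted p = 0.365). Nfil3, which promotes Il10, was at -0.32 with separated tissues, and Prdm1, which encodes Blimp-1 and is needed for Il10 in effector Treg, was at 0.28 in the other direction with separated tissues (limma adjusted p = 0.812 and 1). Of the 7 genes for the IL-10 receptor and its signalling none passed. The target gene Bcl3 was at 0.27, the receptor chain Il10ra at 0.06 and the kinase Tyk2 at 0.05.

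Of 14 genes that hold, activate or respond to TGF-beta none passed, with a median of -0.07. Lrrc32, which encodes GARP, the protein that holds latent TGF-beta on the Treg surface, measured 8.77, 8.85 and 8.74 in liver and 9.40, 9.20 and 8.61 in spleen. The tissues overlapped because spleen array 6 was the lowest of all, and the difference was -0.29 (95% confidence interval -0.66 to 0.09). Itgb8, a chain of the integrin that activates TGF-beta, was at -0.22 and the receptor chain Tgfbr1 at 0.15. Of 11 EGF receptor ligands, their processing factors and alarmin receptors none passed, and the list's median was -0.001. Egfr, Ereg and Epgn were below the mean of the negative control rows on all 6 arrays. Il1rl1, the receptor for IL-33 that induces Areg in tissue Treg, was at 9.49, 9.55 and 9.29 in liver and 9.44, 9.21 and 9.27 in spleen, and the tissues overlapped (difference 0.14, 95% confidence interval -0.12 to 0.40). Il18r1, the IL-18 receptor chain, was at 0.20. Egf was at -0.09 and below the mean of the negative control rows on 5 of the 6 arrays.

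Of 11 genes of purine release, breakdown and adenosine sensing none passed, and the median was -0.01. Ada, which breaks adenosine down, was at 0.30 (95% confidence interval 0.0002 to 0.60, limma adjusted p = 1) with separated tissues. The receptor Adora2b was at 0.16 and below the mean of the negative control rows, and the ATP-cleaving enzyme Entpd3 was at -0.12. Of 9 receptors, relatives and sheddases of Fgl2, galectin-1 and Lag3 none passed. Havcr2, which encodes the inhibitory receptor Tim-3, measured 8.44, 8.69 and 8.50 in liver and 8.44, 8.02 and 7.57 in spleen, with a difference of 0.53 (SE 0.18, limma adjusted p = 0.819). The tissues overlapped there, at liver array 2 and spleen array 4. Fcgr2b, the inhibitory Fc receptor that Fgl2 binds, was at 0.20 and below the mean of the negative control rows, and Lgals3, which encodes galectin-3, was at 0.14. Of 10 other suppressor molecules of Treg none passed: the pore-forming Prf1 was at 0.28, the inhibitory receptor Pdcd1 at -0.28 and the costimulatory receptor Tnfrsf18 at -0.12.

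**Figure D4:**
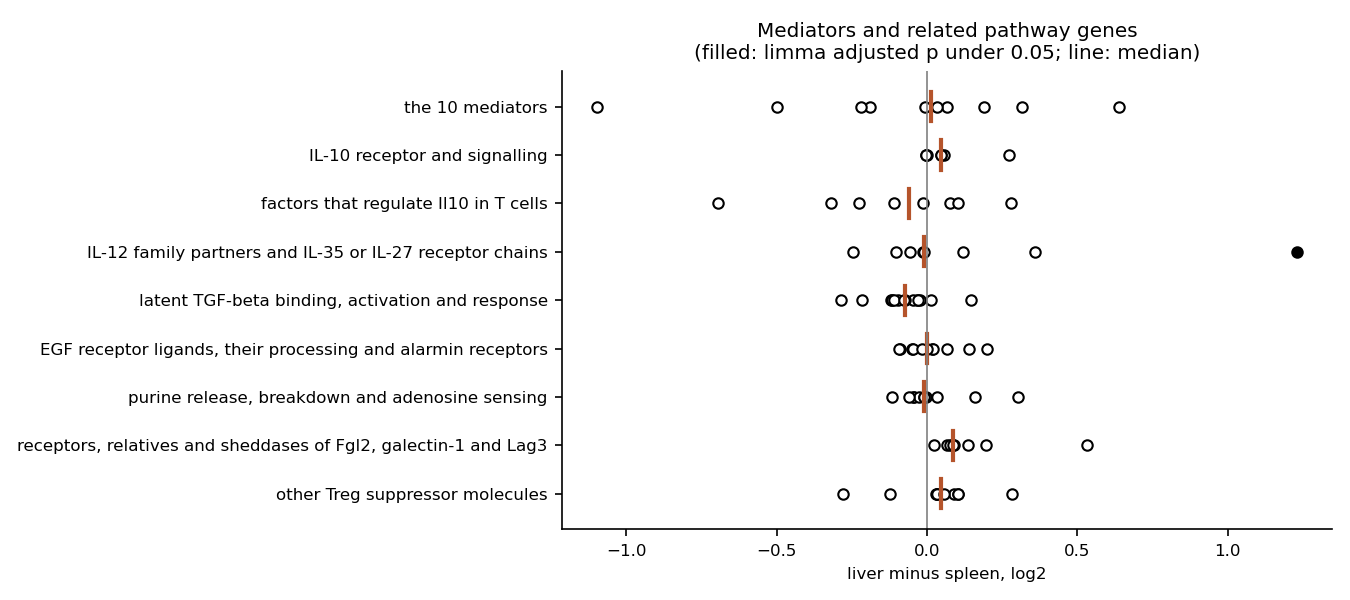
Liver minus spleen difference on the log2 scale for the 10 mediators and the 78 pathway genes, 1 point per gene and 1 row per list, with the list's median as a line. The filled point is Il12rb2 at 1.23, the 1 gene that passed; Areg at -1.10 is the point furthest to the left.

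For the 3 mediators with the largest differences, the genes with the most similar profile over the 6 arrays were sought among 15547 genes, by the root mean square distance between profiles centred on their own mean. Tissue and array set are shared by all 6 points, so closeness describes these arrays only. The neighbours were picked for their profiles, so a likeness to the member on any array follows from the choice. Nearest to Areg were the transcription factor gene Zbtb10 (distance 0.11 log2 units, where Areg itself varied by 0.62 around its mean), the kinase gene Plk2 (0.13) and the chemokine gene Cxcl2 (0.13). Zbtb10 measured 7.79, 7.82 and 7.73 in liver and 9.13, 8.95 and 8.53 in spleen. Nearest to Il10 were the nuclear receptor gene Nr4a3 (0.05, where Il10 varied by 0.31), Ifrd1 (0.05) and the connexin gene Gjb2 (0.06). Nr4a3 was at 8.48 on spleen array 6 and at 9.004 and 9.02 on spleen arrays 4 and 5, and at 8.27 to 8.45 in liver. Nearest to Fgl2 were Hip1 (0.06, where Fgl2 varied by 0.33), the chemokine gene Ccl4 (0.07) and the carboxypeptidase gene Scpep1 (0.07). Ccl4 measured 6.99, 7.11 and 7.02 in liver and 6.44, 6.40 and 6.22 in spleen, with the tissues separated and spleen array 6 the lowest.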

How the data were processed

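Total RNA of 3 liver and 3 spleen Treg samples was hybridised to Affymetrix arrays, named Mouse Gene ST 2.0 in the labels' protocols and MTA-1_0 in the column headers. The deposited values are log2 signals per transcript cluster, which the authors obtained by RMA; the submitters' processing notes name Affymetrix Expression Console and no version. RMA corrects background, quantile normalizes probes and summarises them; it compresses differences of dim genes. The genome build is not given in the sources used here. The array number limits the precision.

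Of 72688 rows, 39514 had 1 gene symbol, and per symbol the row of highest mean was kept, which gave 38854 genes. Liver was compared with spleen with limma 3.58.1 in R 4.3.3 (lmFit, eBayes, two-sided, Benjamini-Hochberg over all genes, threshold 0.05, no covariate). Ratios between members used exact permutation tests (scipy 1.17.1). Negative control rows were the 5222 rows whose identifiers mark them so. The fit was tested on simulated arrays of 38854 genes for the liver and spleen comparison, and recovered 13.4%, 76.1% and 98% of genes changed by 0.5, 1 and 2 on the log2 scale. The simulated noise had each gene's spread within tissues but was independent between genes, without array sets or shifts between arrays. These shares therefore need not hold for the real arrays.

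The members and lists were chosen with earlier results of these data known. Of each pathway list, genes past the threshold and up to 3 others with the largest absolute difference are named; further ones were chosen after their values were seen. A gene that this rule selects is not reported here. Profile neighbours were the 3 nearest of each of the 3 members with the largest differences, with a mean at least 1 above the background rows and without predicted models. Alternatives were filters on dim genes, 3 rescalings, averaging rows of a symbol, a trended robust fit, array weights, leaving out each array, and the array set as a term.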

Additional observations from a re-analysis of the deposited data

How the results depend on the processing

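Areg, Fgl2 and Il10 were the 3 mediators with the largest absolute differences in 14 of 15 alternatives, array weights being the exception with 2 of these 3. Of the 10 mediators, 0 passed limma in 11 alternatives and in the reported fit, where 4 had an unadjusted p under 0.05. The number that passed was 1 with the trended robust fit (Fgl2, 0.639, adjusted p = 0.0371), 1 with the array set as a block (Areg, -0.961, adjusted p = 0.0336), 4 with array weights (Areg -0.741, Fgl2 0.701, Ebi3 0.369 and Entpd1 0.312, adjusted p = 0.0113, 0.00113, 0.0118 and 0.0266) and 0 to 1 with 1 array left out (Areg without spleen array 6, -1.37). The tissues did not overlap in 5 mediators after subtracting array medians, in 8 without spleen array 4 and in 6 otherwise. The array weights ran from 0.188 for spleen array 5 to 9.34 for liver array 2, and 3533 of all genes were called with them, against 8 in the reported fit. Without 1 array, Areg ranged from -1.37 to -0.912, Fgl2 from 0.576 to 0.703, Il10 from -0.669 to -0.377 and Ebi3 from 0.265 to 0.365. Over all alternatives the adjusted p ran from 0.00683 to 0.568 for Areg, 0.00113 to 0.522 for Fgl2, 0.0901 to 1 for Il10, 0.0118 to 1 for Ebi3 and 0.0266 to 1 for Entpd1. Tgfb1 changed sign with array medians subtracted (0.0212), with array weights (0.0816), with the array set (0.000765) and among fits without 1 array (-0.0659 to 0.0304), and Lag3 among fits without 1 array (-0.131 to 0.15); the cause was not tested. The count of all genes called was 18 without the dimmer 50% of genes by mean, 21 without genes under log2 5 (fewer genes tested in both), 27 with the trended robust fit, 78 with the array set, 0 after subtracting medians, quantile normalization or cyclic loess (1650, 2391 and 2429 at an unadjusted p under 0.05) and 0 to 33 without 1 array (0 without spleen array 5, with 2017 at an unadjusted p under 0.05). The count of pathway genes called was 1 in the reported fit, 0 after those 3 rescalings, 11 with array weights and 0 to 2 without 1 array (0 without liver array 3 or spleen array 5, 2 without spleen array 6). Il12a was among the dimmer 50% and has no value without them. No paired analysis was possible because the liver and spleen arrays share no number in the labels.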
